A study of Homo sapiens with 4 samples.

Results

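The genes described here are those whose level fell close to 0 in the deposited gene table when METTL3 was silenced in HepG2 cells, an established human hepatocarcinoma line. Members were chosen by their values: a control mean of at least 15 normalized counts and a knockdown mean under 5. This rule found 56 of the 1977 genes in the authors' deposited table (2.83%). The fall from control to knockdown is therefore how the genes were found, and it is given below as a description with no test.

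The study compared 2 libraries from HepG2 cells given an siRNA against METTL3 with 2 libraries from cells given a scrambled control siRNA. Both groups received the oligonucleotide again 48 and 96 hours after the first transfection, and all cells were collected on day 7. RNA was poly(A) selected and sequenced as Illumina TruSeq libraries. The knockdown is transient and partial, and RNA of a whole culture was measured, so fewer cells with a transcript and less of it per cell cannot be told apart.

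METTL3 is the catalytic subunit of the enzyme complex that places N6-methyladenosine, the most common internal modification of messenger RNA. Proteins that recognise this mark influence splicing, nuclear export, translation and decay of the transcript. A fall in an mRNA after METTL3 silencing can be direct or follow from other changed genes, and a table of RNA levels does not separate these.

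The deposited gene table holds group means only, but each mean could be resolved into whole reads of its 2 libraries. This gave a single solution for 1963 of 1977 genes (99.3%) and for every one of the 56 members. The listed genes held 1072152 and 1459543 reads in controls 1 and 2 and 1329914 and 1228382 reads in knockdowns 1 and 2. METTL3 itself had 690 and 1006 reads in the controls and 304 and 254 in the knockdowns, a 3.96-fold lower mean normalized count. None of the 10 hepatocyte markers checked was among the listed genes, so the gene table holds no value for them, and among the other markers 3 of 4 fibroblast genes (DCN, LUM and COL3A1) were listed lower, as were 58.7% of all listed genes, and 1 of 7 blood (CD14), 1 of 4 endothelial (CDH5) and 1 of 4 neural genes (SYP) were listed higher. The part of other cell types in the results below was not tested.

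The 56 genes had few reads. Their control means ran from 15.02 to 204 normalized counts with a median of 23.8, against a median of 180 over all listed genes and 356 over the other genes listed as lower. In all, 47 members had a control mean under 50 and 36 had one under 30. Each had 26 to 302 reads over both control libraries (median 41) and 0 to 11 reads over both knockdown libraries (median 6.5). The median log2 fold change was -3.44, beside -1.10 over all listed genes and -1.37 over the other lower genes. These values follow from the rule.

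By kind, 33 members were protein-coding genes outside near-identical families, 4 belonged to near-identical families (AKR1C4, KLRC2, KLRC3 and KLRC4), 2 were KRAB zinc finger genes (ZNF90 and ZNF506), 4 were pseudogenes (PPIAP9, PPIAP87, KRT17P1 and AL360271.1), 3 were noncoding RNAs (LINC02872, Y_RNA and AL136982.1), and 10 identifiers had no name in the reference tables. Reads of a gene with close copies can be assigned to the wrong copy, so sequence is shown for 3 members beside the relative each most needs to be told from. Each pair shows 120 bases of transcript from GENCODE v29, with the bases that differ between the 2 in capitals. The stretch starts at the start codon, or in the pseudogene PPIAP9 at the ATG in the matching place. PPIAP9, on chromosome 6, is a processed copy of PPIA, the cyclophilin A gene on chromosome 7. They differed at 14 of the 120 bases and were 92.7% identical over 494 aligned coding bases.
PPIAP9: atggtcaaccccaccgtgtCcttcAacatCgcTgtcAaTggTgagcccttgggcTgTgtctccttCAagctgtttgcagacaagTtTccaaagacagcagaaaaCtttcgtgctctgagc
PPIA: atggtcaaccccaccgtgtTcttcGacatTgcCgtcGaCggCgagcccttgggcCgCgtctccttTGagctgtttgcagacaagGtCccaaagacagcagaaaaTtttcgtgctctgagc
AKR1C4 and AKR1C1 are aldo-keto reductases of steroid metabolism on chromosome 10. They differed at 20 of the 120 bases and were 88.9% identical over 968 aligned coding bases.
AKR1C4: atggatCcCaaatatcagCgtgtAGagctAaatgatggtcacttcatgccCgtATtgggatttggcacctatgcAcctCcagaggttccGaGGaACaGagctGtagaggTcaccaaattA
AKR1C1: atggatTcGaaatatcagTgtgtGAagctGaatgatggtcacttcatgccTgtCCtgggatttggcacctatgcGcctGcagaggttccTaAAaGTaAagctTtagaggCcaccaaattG
KLRC3 and KLRC2 encode lectin receptors of natural killer cells and lie next to each other on chromosome 12. They differed at 2 of the 120 bases and were 96.4% identical over 667 aligned coding bases.
KLRC3: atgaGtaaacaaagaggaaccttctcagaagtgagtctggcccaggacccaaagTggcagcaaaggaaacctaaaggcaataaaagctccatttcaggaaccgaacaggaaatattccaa
KLRC2: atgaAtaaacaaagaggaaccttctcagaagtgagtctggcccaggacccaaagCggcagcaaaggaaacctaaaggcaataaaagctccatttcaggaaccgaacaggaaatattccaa

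Of the 46 members with a transcript in GENCODE v29, 10 shared more than 50% of their longest transcript with another gene in stretches at least 50 bases long and at least 90% identical, and 30 shared less than 10%.

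The resolved reads split the members into 2 kinds. In 11 of 56 (19.6%), 1 control library held at least 90% of the control signal, 6 in control 1 and 5 in control 2. Among other lower genes with control means in the same range this was so for 3 of 401 (0.748%), and among all other lower genes with a control mean of at least 15 for 5 of 1075 (0.465%). The rule shapes this contrast. A gene high in 1 control library and near 0 elsewhere passes it, while the other genes all had a knockdown mean of at least 5. The shares are therefore a description of what the rule admits. The 11 were all 4 pseudogenes, both zinc finger genes, AKR1C4 and 4 of the 10 genes without a name. None of the 33 other coding genes and none of the noncoding RNAs was among them. In these 11 genes the lower control library stood at 0 to 2.91 normalized counts, and the higher knockdown library at 0 to 3.602. In the gene values of these 11 the control level came from 1 library, and the other control library was as low as the knockdown libraries or nearly so. By gene values, the label of a gene nearly extinguished by the knockdown therefore rests on 1 library for each of the 11. The listed exons of KRT17P1 and AKR1C4 had 57 and 26 reads in control 1, as described below.

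In the other 45 members the larger control library held 50.1% to 87.4% of the control signal (median 56.7%), and both control libraries lay above both knockdown libraries in all 45. Their means were 3.90-fold to 104-fold lower in the knockdown, with a median of 7.53-fold over those not at 0. Over all 56 members the controls lay above the knockdowns without overlap in 50 (89.3%), beside 1083 of 1096 other lower genes (98.8%). The 6 that overlapped were ZNF506, AL360271.1 and 4 genes without a name.

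**Figure D1:**
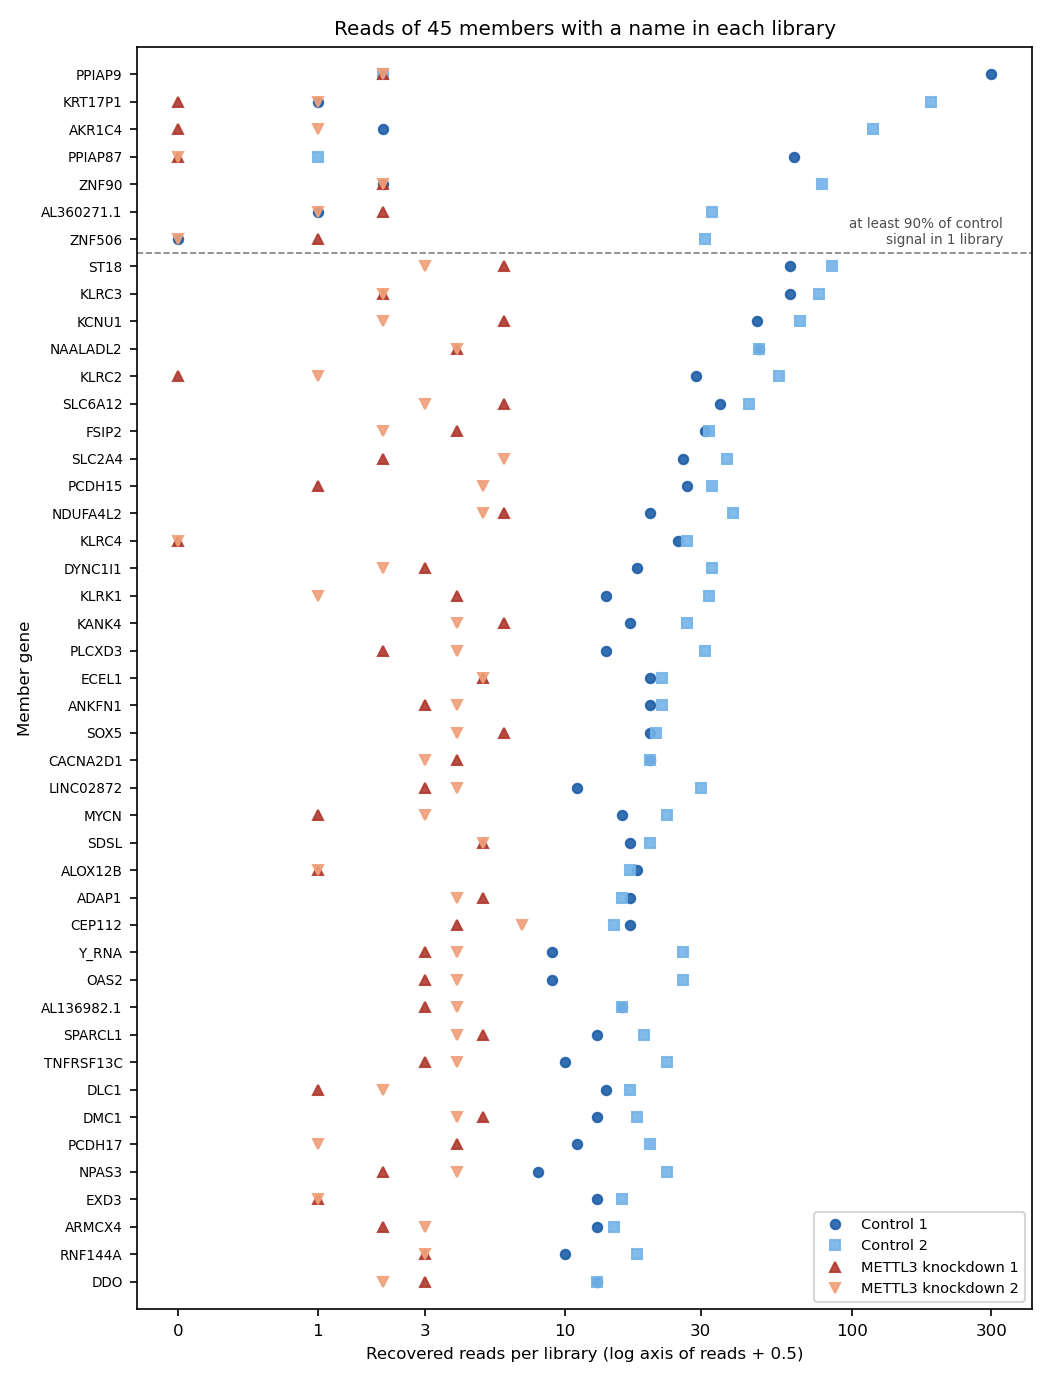
Reads of 45 members with a name in each of the 4 libraries, on a log axis of reads plus 0.5, with 1 row for each gene and 1 symbol for each library. Above the dashed line are the 7 named genes with at least 90% of the control signal in 1 library, whose other control symbol lies at 0 to 2 reads, where the knockdown symbols also lie, and below it both control symbols lie to the right of both knockdown symbols in every row.

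All 4 pseudogenes had a wide gap between the control libraries. PPIAP9, a copy of the cyclophilin A gene, had 300 and 2 reads in the controls and 2 and 2 in the knockdowns. In normalized counts this was 407 and 1.94 against 1.67 and 1.801, so control 2 was 1.12 times the knockdown mean while the group means differed 118-fold. PPIAP87, a second cyclophilin A copy, had 63 and 1 reads in the controls and none in the knockdowns. Its mean was at least 33.2-fold lower, taking 3 reads over both knockdown libraries as the floor. AL360271.1 had 1 and 33 control reads and 2 and 1 knockdown reads. Control 1 was the high library for both cyclophilin A copies, and control 2 for AL360271.1 and for the keratin pseudogene KRT17P1.

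KRT17P1 had 1 and 186 reads in the controls and 0 and 1 in the knockdowns. The fold of 202 from the means has a counting interval of 35.7 to 8004 (95%, exact Clopper-Pearson), which does not cover the difference between the control libraries. KRT14, KRT15 and KRT16 were the 3 of 16 keratin genes listed, and all 3 were higher in the knockdown, as were 41.3% of all listed genes. KRT14 had 82 and 294 reads in the controls and 743 and 669 in the knockdowns, so its controls also differed, though less than those of KRT17P1. No gene-table value is held for KRT17, a keratin of stressed epithelium, but the authors' deposited table lists an isoform at 119 FPKM in the control and 443 in the knockdown and another at 186 and 615. A further isoform that the authors label KRT17P1 belongs to KRT17 in GENCODE v29, and it rose from 11.8 to 44.4 FPKM.

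The 2 zinc finger genes, both KRAB repressors on chromosome 19, had control 2 as the high library. ZNF90 had 2 and 79 control reads and 2 and 2 knockdown reads. ZNF506 had 0 and 31 control reads and 1 and 0 knockdown reads. The longest match of ZNF90 elsewhere was to ZNF506, and they lie 256 kb apart in GRCh38.

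AKR1C4, a liver reductase that acts on steroids and bile acid precursors, had 2 and 118 reads in the controls and 0 and 1 in the knockdowns. Its mean was 130-fold lower, with a counting interval of 22.9 to 5174, and again nearly all control reads came from control 2. AKR1C1, the relative shown above, had 703 and 1073 reads in the controls and 465 and 412 in the knockdowns, a 2.63-fold lower mean with reads in both controls. AKR1B10, also listed among the 12 genes on the aldo-keto reductase list, went from 17.0 to 50.02 normalized counts.

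Among the genes without a name, ENSG00000213482 had 198 and 3 reads in the controls and 3 and 4 in the knockdowns. Its lower control library was below the knockdown mean. Of 3 others with 1 high control library, ENSG00000216679 had 30 and 0 control reads, another had 28 and 0, and both had none in the knockdowns. The remaining 6 unnamed genes had control means of 16.1 to 32.6 and knockdown means of 1.32 to 3.92 normalized counts. Their groups did not overlap, as in 1083 of 1096 other lower genes (98.8%). For ENSG00000208766 the gap was small, with 3 and 29 control reads and 3 and 4 knockdown reads.

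**Figure D2:**
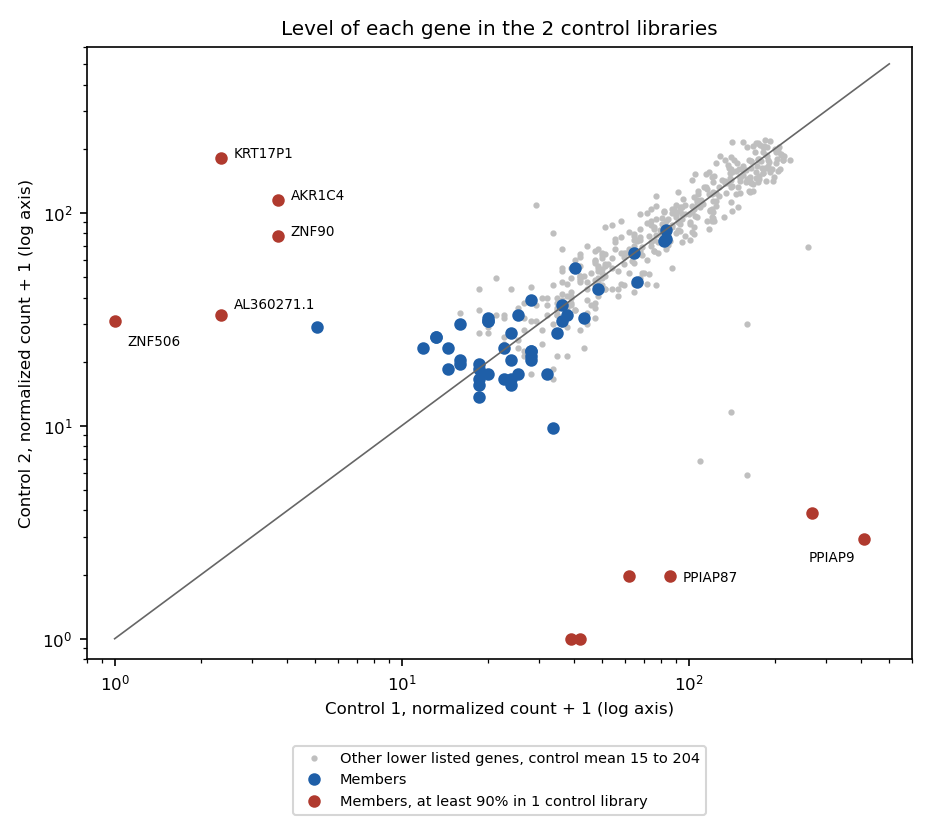
Normalized count plus 1 of each gene in control 1 (horizontal) and control 2 (vertical), both on log axes, with the diagonal marking equal levels. Most of the 45 other members (blue) lie near the diagonal, as do most lower genes of the same range (grey), and the 11 members with at least 90% of the signal in 1 control library (red) lie far from it.

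The natural killer lectin receptors were the largest family among the named members. KLRK1 encodes NKG2D, an activating receptor, and KLRC2, KLRC3 and KLRC4 encode receptors of the NKG2 group, some of which pair with CD94. They are known from natural killer and T cells rather than liver cells. KLRC3 had 61 and 77 reads in the controls and 2 and 2 in the knockdowns, a 45.3-fold lower mean. KLRC2 had 29 and 56 control reads and 0 and 1 knockdown reads, with a fold of 104 and a counting interval of 18.2 to 4151. KLRC4 had 25 and 27 control reads and none in the knockdowns, at least 23.1-fold lower. In all 3 genes both control libraries were high and no knockdown library exceeded 2 reads.

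KLRK1 had 14 and 32 control reads and 4 and 1 knockdown reads, an 11.8-fold lower mean. KLRC1, the inhibitory member of the group, was listed too but missed the control minimum, with 7 and 12 control reads and 1 and 2 knockdown reads. Of the 10 genes on the lectin receptor list, 5 were in the gene table and all 5 were lower, where 58.7% of all listed genes were lower. The 5 lie side by side on chromosome 12 within 82.3 kb (GRCh38). KLRC2, KLRC3 and KLRC4 share 65.7%, 75.4% and 58.0% of their longest transcripts with other genes at 90% identity or more, so the split of reads among them is uncertain, and KLRK1 shares 15.2%.

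**Figure D3:**
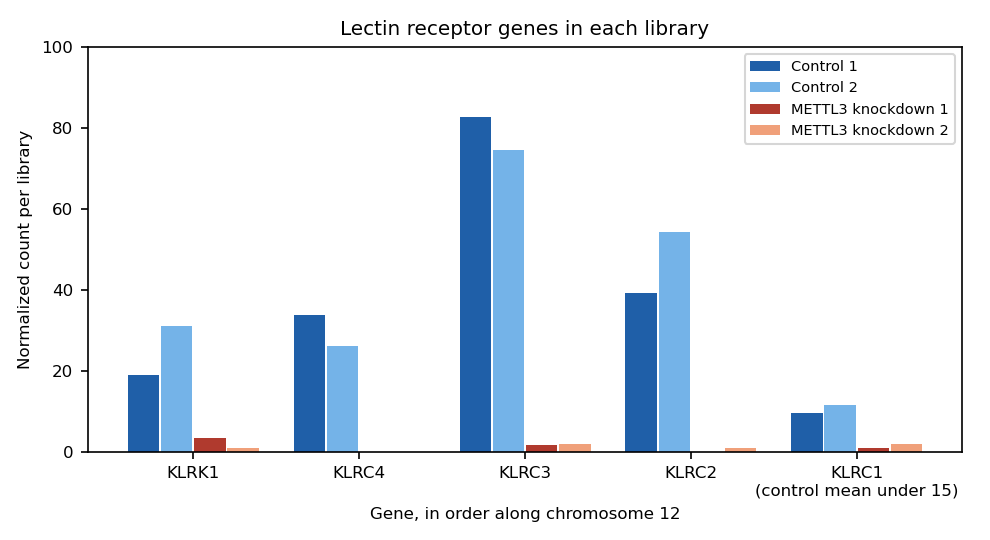
Normalized count of 5 lectin receptor genes in each library, as bars from 0, in their order along chromosome 12. Both control bars of each gene stand above both of its knockdown bars, and KLRC4 has no bar in either knockdown library. KLRC1 has a control mean of 10.6 and lies outside the rule.

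The 33 coding genes outside these families had control means of 15.1 to 82.5 and knockdown means of 0.867 to 4.82 normalized counts. Their means were 3.90-fold to 23.6-fold lower, with a median of 7.93-fold. In all 33 both control libraries lay above both knockdown libraries, beside 1083 of 1096 other lower genes (98.8%). The limits of the rule favour this where no control library dominates. They are given here by function. Normalized counts are not divided by transcript length, so the levels of different genes are not ranked against each other.

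Of 4 transcription factors, ST18, a zinc finger factor of the MYT1 family, had 61 and 85 reads in the controls and 6 and 3 in the knockdowns, a 21.4-fold lower mean. Its normalized counts in the controls were 82.7 and 82.3, closer to each other than to any knockdown value. It was the 1 gene listed of 3 in its family. MYCN, the neuronal relative of MYC, had 16 and 23 control reads and 1 and 3 knockdown reads. SOX5, a factor of chondrocyte and neural development, had 20 and 21 control reads and 6 and 4 knockdown reads. NPAS3, a basic helix-loop-helix factor of the brain, had 8 and 23 control reads and 2 and 4 knockdown reads, the least even controls of the 4.

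The transporters and channels were KCNU1, SLC6A12, SLC2A4 and CACNA2D1. KCNU1, a potassium channel of sperm, had 47 and 66 reads in the controls and 6 and 2 in the knockdowns, an 18.8-fold lower mean. SLC6A12, which carries betaine and GABA, had 35 and 44 control reads and 6 and 3 knockdown reads. SLC2A4, the insulin-responsive glucose transporter, had 26 and 37 control reads and 2 and 6 knockdown reads. CACNA2D1, an auxiliary subunit of voltage-gated calcium channels, had 20 and 20 control reads and 4 and 3 knockdown reads. For each of the 4 the lower control library had more than 3 times the reads of the higher knockdown library.

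Among secreted, adhesion and receptor genes, PCDH15, a protocadherin of sensory hair cells, had 27 and 33 control reads and 1 and 5 knockdown reads. PCDH17 (another protocadherin), SPARCL1 (a secreted matrix protein) and TNFRSF13C (the BAFF receptor of B cells) had control means of 17.1 to 18.0 and knockdown means of 2.12 to 3.89. In these 4 genes the knockdown reads were few but not absent.

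Of 10 enzyme genes, AKR1C4 was described above. NAALADL2, a relative of the glutamate carboxypeptidases, had 48 and 48 reads in the controls and 4 and 4 in the knockdowns, a 16.1-fold lower mean. ALOX12B, a lipoxygenase of the epidermal barrier, had 18 and 17 control reads and 1 and 1 knockdown reads, with a fold of 23.6 and a counting interval of 6.05 to 202. It was the 1 gene listed of 7 lipoxygenases. EXD3, an exonuclease-domain gene, had 13 and 16 control reads and 1 and 1 knockdown reads. PLCXD3 (a phospholipase), ECEL1 (a neuronal endopeptidase), SDSL (a serine dehydratase relative), OAS2 (an interferon-induced synthetase), RNF144A (a ubiquitin ligase) and DDO (D-aspartate oxidase) were 4.89-fold to 9.30-fold lower. The controls of ALOX12B, EXD3 and NAALADL2 were nearly equal in reads. In normalized counts control 1 was higher than control 2: 24.4 and 16.5, 17.6 and 15.5, and 65.1 and 46.5.

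A further 6 genes concern the cytoskeleton and signalling. DYNC1I1, an intermediate chain of dynein, had 18 and 33 reads in the controls and 3 and 2 in the knockdowns, a 13.1-fold lower mean. DLC1, a gene often deleted in liver cancer, had 14 and 17 control reads and 1 and 2 knockdown reads. KANK4, ANKFN1, ADAP1 and CEP112 were 3.90-fold to 7.93-fold lower, and CEP112, a centrosomal protein, was the least lowered of all 56.

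The germ line genes were FSIP2 and DMC1. FSIP2, of the sperm fibrous sheath, had 31 and 32 reads in the controls and 4 and 2 in the knockdowns, a 14.2-fold lower mean. DMC1, the meiotic recombinase, had 13 and 18 control reads and 5 and 4 knockdown reads. NDUFA4L2, a hypoxia-induced mitochondrial protein, had 20 and 39 control reads and 6 and 5 knockdown reads. ARMCX4, an X-linked armadillo gene, had 13 and 15 control reads and 2 and 3 knockdown reads.

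LINC02872, a long noncoding RNA, had 11 and 30 reads in the controls and 3 and 4 in the knockdowns, a 7.20-fold lower mean. AL136982.1 had 16 and 16 control reads and 3 and 4 knockdown reads. The Y_RNA gene, a copy of a small noncoding RNA family, and OAS2, on another chromosome, each had 9 and 26 control reads and 3 and 4 knockdown reads, the same in all 4 libraries. Y RNA copies are alike, and this one shares 86.9% of its transcript at 90% identity or more.

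The 39 coding members spanned 2.38 to 1825 kb of GRCh38, from KLRC4 to PCDH15, with a median of 57.5 kb, beside 45.4 kb for 963 other lower coding genes. In all, 11 (28.2%) spanned more than 200 kb, beside 127 (13.2%) of the others. Their longest transcripts had a median of 3426 bases, beside 4164. Span was not matched for expression level between these groups, so the comparison is a description.

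The isoform table listed 37 isoforms of 29 members (51.8%), beside 78.7% of the other listed genes with at least 1 isoform. The 10 unnamed members could not be matched to isoforms, so at most 46 could be counted. Unnamed genes among the others could not be matched either. In that deposited table, 36 of the 37 were lower in the knockdown, beside 53.3% of all 7251 listed isoforms, and they belong to genes chosen for being lower. Of the 37, 28 were under 1 FPKM in the control. FPKM is scaled for length, and the median was 0.523 FPKM in the control and 0.0445 in the knockdown. Apart from the short Y_RNA, the highest control values belonged to AKR1C4 and the lectin receptors. KLRC2 went from 3.46 to 0.0610 FPKM, the first KLRC3 isoform from 3.46 to 0.0409 and the second from 2.46 to 0.0614, and KLRC4 from 2.46 to a listed 0. The isoforms of ST18 (0.700 to 0.0348 FPKM) and KCNU1 (0.998 to 0.0708 FPKM) were lower as their genes were.

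AKR1C4 was the 1 member with isoforms in both directions. In the authors' deposited table, ENST00000397357 fell from 18.5 to 1.81 FPKM and ENST00000263126 from 4.26 to 2.09, while ENST00000380448 rose from 0.227 to 2.65. ENST00000397357 was 1 of 7 isoforms matched by the authors' label alone. Each AKR1C4 isoform stood at 1.81 FPKM or more in the knockdown, where the gene had 0 and 1 reads. The isoform values therefore do not show AKR1C4 near 0. Isoform values were deposited for groups only, so the share of control 2 in them is not known. Of the coding members, 12 had no isoform listed, among them ZNF90, PCDH15, DYNC1I1, KANK4, PLCXD3, CACNA2D1, MYCN, DLC1, EXD3, DDO and ZNF506. Neither of the zinc finger genes and none of the pseudogenes had one. Matching needed a name or a GENCODE v29 transcript, so the 10 unnamed genes could not have one.

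**Figure D4:**
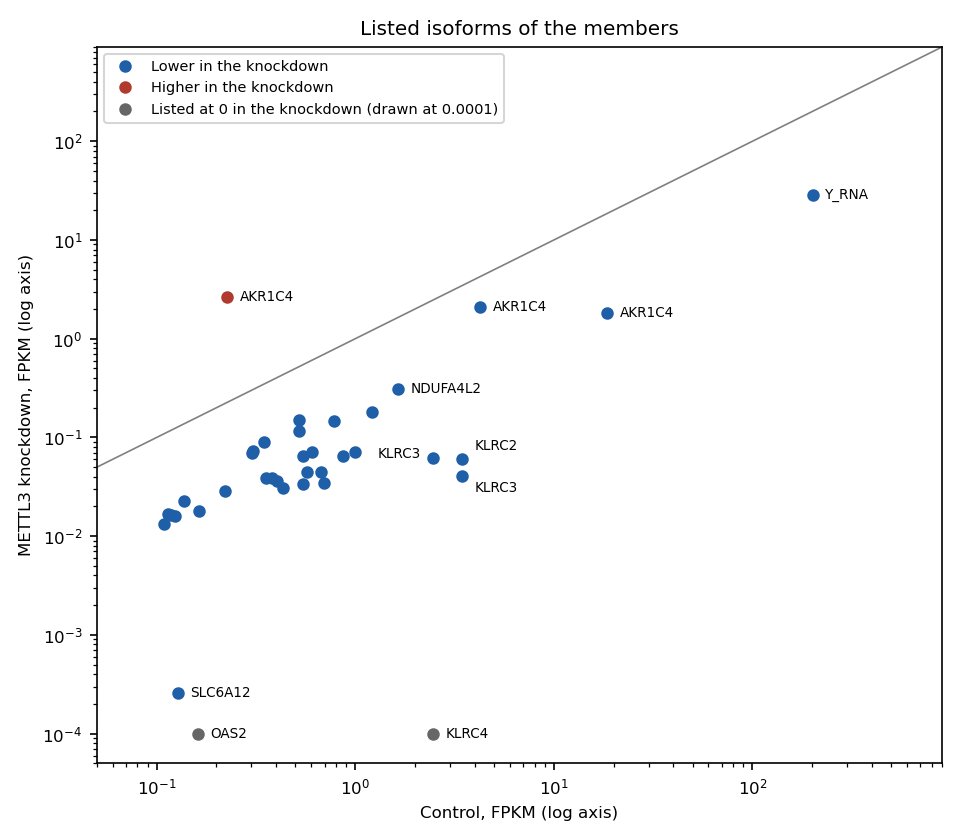
FPKM of the 37 listed isoforms of members in the control (horizontal) and the METTL3 knockdown (vertical), both on log axes, with the diagonal marking equal levels. All but 1 AKR1C4 isoform lie below the diagonal, and the OAS2 and KLRC4 isoforms listed at 0 in the knockdown are drawn at 0.0001.

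Introns were listed for 11 members (19.6%), beside 23.3% of the other listed genes. In the authors' deposited table, 13 of their 14 introns were lower, beside 71.7% of all 2672 listed introns, and 8 had a knockdown mean under 5 normalized counts, beside 6.62%. These introns belong to genes chosen for being lower and near 0 in the knockdown, in the same libraries. KCNU1 had 4, all lower, such as intron 15 from 70.3 to 2.48. ALOX12B had 2, from 40.4 to 0.3996 and from 40.7 to 3.28. Intron 1 of KLRC3 went from 181 to 3.66, and an intron of the locus that joins KLRC4 and KLRK1 from 194 to 7.80. The introns of ANKFN1 (543 to 166), ADAP1 (298 to 99.9), ST18 (105 to 20.1) and the locus that joins EXD3 with an unnamed gene (85.0 to 18.1) were lower but kept 18.1 normalized counts or more in the knockdown, and that of DMC1 went from 20.9 to 1.22. Intron 5 of KRT17P1 was higher, from 26.9 to 111, the direction of the KRT17 isoforms and not of the KRT17P1 gene value.

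Exons were listed for 2 members (3.57%), beside 3.70% of the other listed genes, and both were genes with their signal in control 2. Exon 5 of KRT17P1 had 71.7 and 362 normalized counts in the controls and 2.60 and 1.86 in the knockdowns, a log2 difference of -5.66 with a pseudocount of 1. Exon 10 of AKR1C4 had 32.7 and 113 in the controls and 2.60 and 1.86 in the knockdowns, a log2 difference of -4.27. In reads, the KRT17P1 exon had 57 and 378 in the controls where the gene had 1 and 186, so the exon table counted reads that the gene table did not. The AKR1C4 exon had 26 and 118 in the controls where the gene had 2 and 118. In the exon table both control libraries of both exons lay above both knockdown libraries, and control 2 was again the higher.

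**Figure D5:**
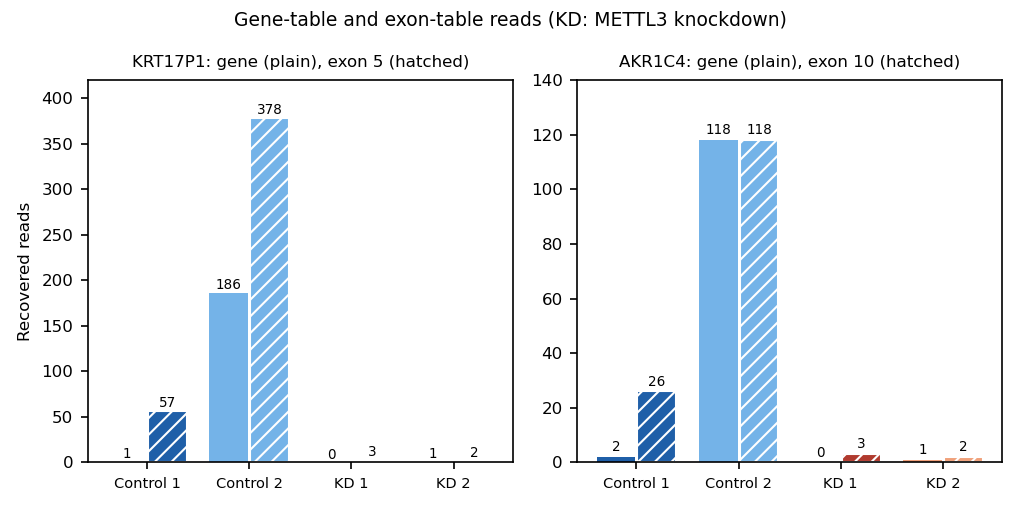
Recovered reads of KRT17P1 (left) and AKR1C4 (right) in each library, for the gene (plain bars) and its listed exon (hatched bars), from 0. Control 2 is the tallest in all 4 series, and control 1 holds 57 and 26 reads in the exons but 1 and 2 in the genes.

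In all, 25 members appeared in the gene table alone, among them 9 of the 11 genes with their control signal in 1 library. The exceptions were KRT17P1 and AKR1C4. The 25 include the 10 unnamed genes, which could not be matched to isoforms, and 4 of these are among the 9. The same share was not counted over the other listed genes, so these counts are not read as a trait of the members.

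The edges of the rule cut through a continuum. Just above the knockdown limit lay an unnamed gene at 5.17 normalized counts, SAMD13 at 5.24 and NOG at 5.55, while CEP112 (4.82), NDUFA4L2 (4.75) and ECEL1 (4.34) lay just inside it. Just below the control minimum lay DAPL1 at 14.9, RHBDL3 at 13.9 and CACNA1E at 12.98, the last with no knockdown read, while ZNF506 (15.02), DDO (15.1) and RNF144A (15.5) lay just inside it. When each library had to meet the rule by itself, with both controls at least 15 and both knockdowns under 5, 22 of the 56 genes met it.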

How the data were processed

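RNA of 4 HepG2 libraries (2 scrambled control, 2 METTL3 knockdown) was measured, and 4 tables were used as the authors deposited them. Per the submitters' processing notes, hg18 was the build, and TopHat 1.2.0, CASAVA 1.8, DESeq 1.5.24, HTSeq, Cufflinks and Cuffdiff 1.0.3 were used. Per the file headers, the deposited gene and intron tables give group mean signal as normalized counts, with a fold ratio, a log2 fold change and adjusted p-values, the deposited exon table gives a normalized signal for each library, and the deposited isoform table gives FPKM by group. The deposited p-values all lie under 0.05 and the log2 fold changes of genes are all at least 1 in size. A gene that is not listed has no value here.

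Each group mean was solved as whole reads of 2 libraries times 2 fixed steps, to a relative tolerance of 1e-09 (normalized counts of 1 read: 1.36 and 0.969 in the controls, 0.834 and 0.901 in the knockdowns). In data simulated for the 1977 listed genes with the same steps, 99.3% of genes had a single solution. The true reads are always a solution there, so a single one could not be wrong. The simulation therefore measures only how often the solution is single, and errors in the steps were not tested. The number of each library was taken from the order of the steps in the exon table, whose columns are named, so library numbers are an inference while groups are not. Intervals and the floor of 3 reads cover counting error only. The libraries are described as biological replicates, with no account of how separate the cultures were. Values of members carry no test, since the same contrast chose them and the tables hold no unlisted genes.

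Identifiers were matched to GENCODE v29 (GRCh38), not the authors' build, so no coordinates are given. Sequences were compared with BLAST+ 2.17.0 and Biopython 1.88. Members and gene lists were chosen with earlier results of these data known. Each member with a name is named, except 1 that is not reported here; values are given for those with a control mean of at least 50, the 10 largest falls, those at 0, those with a listed exon and the highest of each functional group, and the reads of others were added after seeing the data. Rule limits, pseudocounts, near-identical families and single libraries were varied.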

Additional observations from a re-analysis of the deposited data

How the results depend on the processing

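The number of genes meeting the rule was 67 with a control mean of at least 10, 20 with at least 30, 28 with a knockdown mean under 3, 114 with one under 10, 43 with an authors' adjusted p under 0.01 and 48 without pseudogenes and near-identical families. It was 22 when each library had to meet the limits, and 48 to 62 when 1 library was left out (42 to 54 of the 56 among them). The settings by library for genes, the 90% share with its alternatives and the isoforms matched by identifier only (26 members) were chosen after seeing the data, while those for exons were planned. The median log2 fold change of -3.44 became -2.95 with a pseudocount of 1, -1.88 with 5, -2.34 recentred on all listed genes, -3.003 without pseudogenes and near-identical families, -2.95 without the 11 genes with their control signal in 1 library, and -3.32 to -3.04 with 1 library left out. It stayed at -3.44 with the members at 0 set to 3 reads. Their falls, then 14.6-fold to 33.2-fold, were still larger than the median fall, so the median could not move. Members with an isoform of at least 1 FPKM in the control were 7 in place of 29. Genes with their control signal in 1 library were 12 at a share of 80%, 11 at 95%, and 6 without pseudogenes and near-identical families. Exon differences ranged from -6.82 to -4.50 for KRT17P1 and from -5.15 to -3.39 for AKR1C4 with 1 library left out. Of 76 log2 values of 19 named members with 1 library left out, on counts plus 1, 73 stayed below 0. The rule favours this sign, since the same libraries chose the members. ENSG00000213482 ranged from -6.06 to 0.053, reversed without control 1, and ENSG00000216679 and another unnamed gene went from -4.42 and -4.32 to 0 without it. PPIAP9 went from -6.23 to -0.10 and PPIAP87 from -5.47 to -0.98 without control 1, and KRT17P1 from -5.98 to -0.70, AKR1C4 from -5.36 to -1.36 and ZNF90 from -3.89 to -0.44 without control 2. The counts changed because looser limits admit other genes and stricter ones leave members out, and the cause of the other shifts was not tested. No paired analysis was possible because no value of the members was tested.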
